A study of Sus scrofa with 12 samples.

Results

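The genes described here are 4 redox defence genes of pig muscle, chosen by name from 20741 features of the count tables: NQO1 (ENSSSCG00000002754), GCLC (ENSSSCG00000001488), PRDX1 (ENSSSCG00000003914) and GSTA4 (ENSSSCG00000002627). Each was found once in the tables and had counts in all 12 libraries, and all 4 passed the filter on low counts. Their levels by drip in earlier results on these animals led to the choice, so the drip values of these 4 genes are a description with no test.

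Redox defence genes keep peroxides, quinones and reactive aldehydes low. Many of them are switched on by NRF2 (the product of NFE2L2), a transcription factor that KEAP1 holds back until an oxidant or electrophile modifies it. Muscle produces such compounds during contraction, and after slaughter when its oxygen supply ends. NQO1 encodes a quinone reductase and is a standard NRF2 target. GCLC encodes the catalytic subunit of glutamate cysteine ligase, the rate-limiting enzyme of glutathione synthesis. PRDX1 encodes a cytosolic peroxiredoxin that reduces hydrogen peroxide and draws its electrons from thioredoxin. GSTA4 encodes an alpha class glutathione transferase that couples glutathione to hydroxynonenal, an aldehyde formed when membrane lipids are oxidised. In the RefSeq gene order of Sscrofa11.1, which is not the build of the count tables, NQO1 lies beside NFAT5, PRDX1 between AKR1A1 and MMACHC, GCLC between KLHL31 and KHDRBS2, and GSTA4 beside ICK, so no pair of the 4 are neighbours.

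Muscle mRNA was sequenced from 12 pigs, 6 labelled high drip and 6 low drip. Drip is fluid lost from meat after slaughter. Replicates 1 to 3 of each group were females and replicates 4 to 6 males, at 167 to 189 days of age. Neither breed, treatment nor which muscle was sampled is given in the sources used here, and bulk tissue was used, in which a change in the number of cells of a type and a change in RNA per cell cannot be told apart.

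Libraries held 8009627 to 12622043 counts in features. The muscle label was checked with the 8 of 20 listed skeletal muscle markers that had an ID, among them ACTA1 and MYL1; all 8 had counts in every library, and their sum, in CPM (counts scaled to the same total in every library), was 171283 to 203105. For 3 females the whole-genome table recorded for the animal carried another animal's number in its name. Tables were assigned here by that number, under which 737 to 745 of 770 counts were identical with the animal's own table of chromosomal regions, against at most 167 for any other animal. The recorded assignment differs in drip level for 2 libraries, those of high drip replicate 2 and low drip replicate 2, which it places in the opposite groups. The drip folds of the 4 genes are therefore also given with the tables as recorded and in the 9 animals without such a conflict. Liver transcripts stood apart in 6 libraries, taken as those with ALB above 10 CPM. ALB, the albumin gene, was at 25.6 to 317 CPM in high drip replicates 1 to 4 and low drip replicates 5 and 6, and at 0.327 to 2.49 CPM in the others. The 20 liver markers with an ID summed to 7.59 to 617 CPM with high drip against 7.52 to 103 CPM with low drip.

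NQO1 was on average higher in high drip animals, at 32.6 ± 4.51 CPM against 27.1 ± 3.93 CPM (mean ± SD, n = 6 each). Among females, high drip replicates 1, 2 and 3 had 25.9, 36.0 and 37.2 CPM, and low drip replicates 1, 2 and 3 had 33.5, 23.8 and 27.5 CPM. Among males, high drip replicates 4, 5 and 6 had 32.8, 28.5 and 35.3 CPM, and low drip replicates 4, 5 and 6 had 23.0, 25.3 and 29.2 CPM. The groups overlapped in both sexes: high drip replicate 1 lay below low drip replicates 1 and 3, and high drip replicate 5 below low drip replicate 6. Of the 36 pairs of a high and a low drip animal, the high drip animal had more NQO1 in 30. The drip fold, the high minus low difference on the log2 scale with sex in the fit, was 0.27 ± 0.12 (fit value ± SE), with 0.23 ± 0.18 in females and 0.32 ± 0.18 in males.

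GCLC took the same direction as NQO1, at 21.8 ± 3.57 CPM with high drip against 18.4 ± 3.96 CPM with low drip (mean ± SD, n = 6 each). Among females, high drip replicates 1, 2 and 3 had 15.7, 25.1 and 22.4 CPM, and low drip replicates 1, 2 and 3 had 21.8, 17.2 and 15.3 CPM. Among males, high drip replicates 4, 5 and 6 had 25.5, 20.4 and 21.7 CPM, and low drip replicates 4, 5 and 6 had 12.8, 20.3 and 22.9 CPM. High drip replicate 1 was again among the lowest animals, rank 3 of 12 counted from the lowest, and low drip replicate 4 was the lowest for GCLC as for NQO1. Of 36 pairs, 27 had more GCLC in the high drip animal. The drip fold was 0.25 ± 0.16, with 0.22 ± 0.24 in females and 0.27 ± 0.23 in males. It was 0.15 without low drip replicate 4.

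PRDX1 differed little by drip in the mean, at 57.9 ± 13.4 CPM with high drip against 55.2 ± 5.82 CPM with low drip (mean ± SD, n = 6 each). Among females, high drip replicates 1, 2 and 3 had 67.0, 35.7 and 63.5 CPM, and low drip replicates 1, 2 and 3 had 55.1, 58.8 and 44.1 CPM. Among males, high drip replicates 4, 5 and 6 had 72.0, 48.8 and 60.6 CPM, and low drip replicates 4, 5 and 6 had 56.4, 60.9 and 55.8 CPM. The 3 highest values of all 12 animals and also the lowest were in high drip animals. The wider spread with high drip, which was not tested, rests in part on replicate 2, a library in conflict. Without it the high drip SD was 8.73 CPM, still above the 5.82 CPM with low drip. Leaving out all 3 libraries in conflict gave SDs of 8.73 CPM with high and 7.15 CPM with low drip. Among males, whose libraries had no conflict, the SD was 11.6 CPM with high against 2.78 CPM with low drip. With the tables as recorded the order over all 12 animals turned, to 7.94 CPM with high against 9.44 CPM with low drip. These comparisons were chosen after the data were seen. PRDX1 ran against NQO1 and GCLC within the high drip females: replicate 1 was their lowest for NQO1 and GCLC and the highest for PRDX1, and replicate 2, high for NQO1 and GCLC, was the lowest of all 12 for PRDX1. The drip fold was 0.07 ± 0.15, with 0.07 ± 0.22 in females and 0.07 ± 0.22 in males. It rests on these animals, since it was 0.18 without high drip replicate 2 and 0.00 without high drip replicate 1 (-9.4e-04 before rounding), and it also moved by more than 1.5 times when another animal was left out, to 0.03, 0.01 and 0.13 without replicates 3, 4 and 5 of the high drip group and to 0.11 and 0.03 without replicates 2 and 3 of the low drip group.

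GSTA4 ran the other way from the other 3 genes, at 3.98 ± 0.610 CPM with high drip against 6.45 ± 1.57 CPM with low drip (mean ± SD, n = 6 each). Among females, high drip replicates 1, 2 and 3 had 3.53, 5.14 and 3.89 CPM, and low drip replicates 1, 2 and 3 had 8.19, 6.15 and 7.98 CPM, and the groups did not overlap. Among males, high drip replicates 4, 5 and 6 had 3.64, 3.56 and 4.11 CPM, and low drip replicates 4, 5 and 6 had 6.12, 6.41 and 3.85 CPM. Low drip replicate 6 was the single low drip animal within the range of the high drip group, and the other 5 low drip animals lay above every high drip animal. The high drip animal had more GSTA4 in 3 of 36 pairs. The drip fold was -0.68 ± 0.17, with -0.82 ± 0.25 in females and -0.53 ± 0.25 in males. The mean level in high drip animals was thus 0.626 times that in low drip animals in the fit.

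Of the 4 genes, 1 had groups that did not overlap in females (GSTA4, lower in high drip), and none did in males or over all 12 animals. Among all tested features the share without overlap was 6.91% in females, with 3.75% lower in high drip, 9.64% in males and 0.113% over all 12. The drip fold had the same sign in females and males for all 4 genes, and opposite signs for 50.3% of all features. The difference between the sexes in drip fold (males less females) was 0.09 ± 0.26 for NQO1, 0.06 ± 0.33 for GCLC, 0.00 ± 0.31 for PRDX1 (-0.0026 before rounding) and 0.29 ± 0.35 for GSTA4. With edgeR, 0 of 10627 features passed an adjusted p of 0.05 for drip (0%), and 380 (3.58%) had an unadjusted p under 0.05. With DESeq2 these counts were 0 and 363. Since the drip contrast chose the genes, these shares are given as context for the 4 and nothing is read from them.

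**Figure D1:**
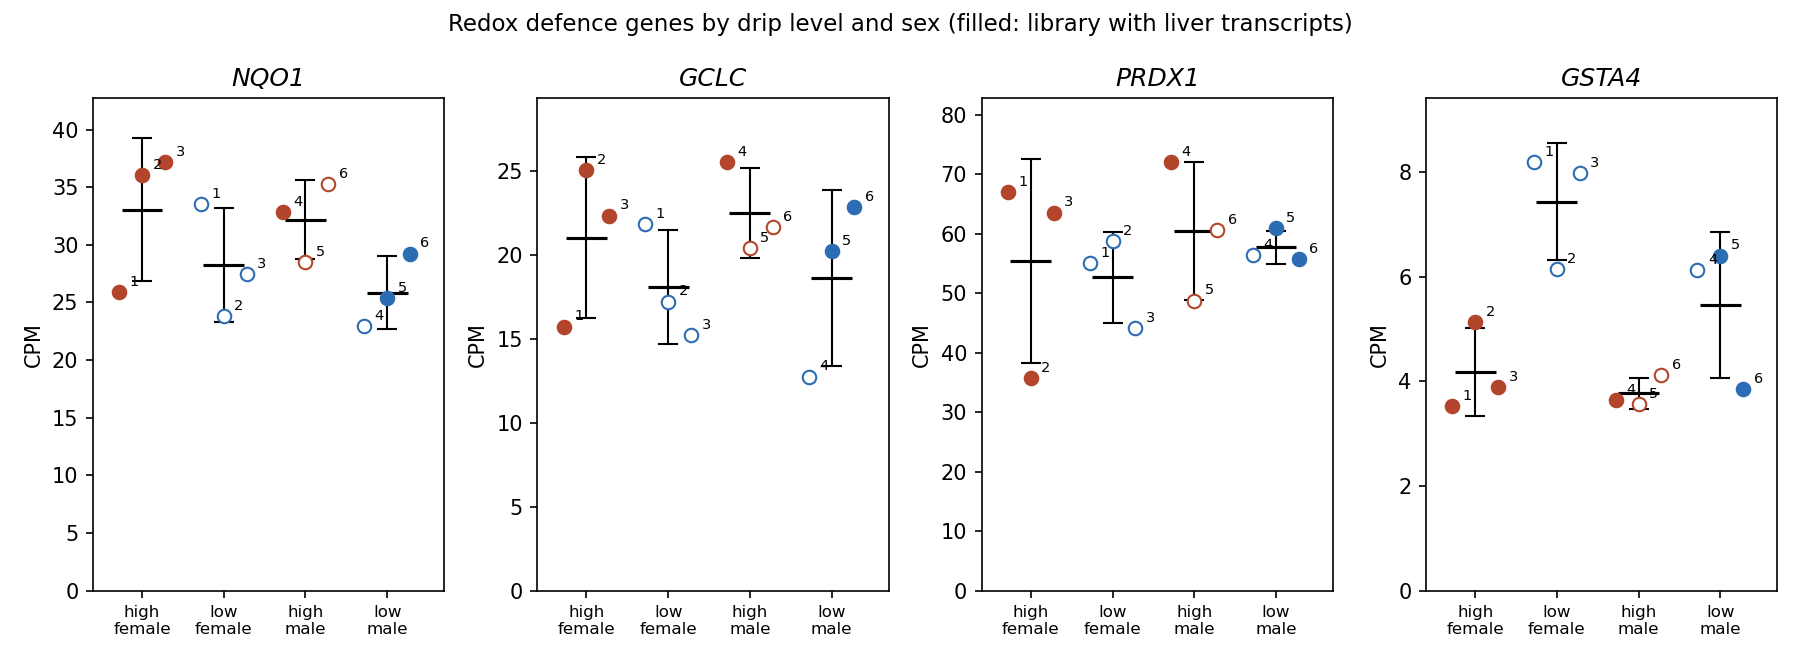
Level of each gene in CPM (linear axis from 0) in the 12 animals by drip level and sex; points are animals labelled by replicate number, filled where the library held liver transcripts, and bars are the mean ± SD of 3 animals. GSTA4 lies at 3.53 to 5.14 CPM in all 6 high drip animals, and 5 of 6 low drip animals lie above that range.

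The spread between animals was set beside the error of counting. NQO1 rested on 225 to 463 counts per library, GCLC on 125 to 322, PRDX1 on 376 to 792 and GSTA4 on 30 to 75. For GSTA4 in high drip animals the coefficient of variation was 15.3%, no larger than the 15.9% that counting alone gives on average, so no spread beyond counting was detectable there at this depth. In low drip animals it was 24.3% against 12.8%. The exact Poisson 95% interval of GSTA4 was 2.40 to 5.08 CPM in high drip replicate 5, its lowest count, and 6.44 to 10.3 CPM in low drip replicate 1, its highest. For PRDX1 the coefficient of variation was 23.1% with high and 10.6% with low drip, where counting gives 4.19% and 4.32%. It was 13.8% and 14.5% for NQO1 and 16.4% and 21.6% for GCLC, with counting error between 5.55% and 7.59%. These intervals cover counting error only.

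Taking the tables as recorded bore on NQO1, GCLC and PRDX1 more than on GSTA4. With tables as recorded, the drip fold was 0.08 ± 0.14 for NQO1, 0.05 ± 0.17 for GCLC, 0.28 ± 0.13 for PRDX1 and -0.58 ± 0.20 for GSTA4. In females alone NQO1 and GCLC then changed sign, to -0.16 ± 0.19 and -0.17 ± 0.24, PRDX1 was at 0.49 ± 0.17 and GSTA4 at -0.64 ± 0.28. In the 9 animals without a conflict the folds were 0.28 ± 0.15 for NQO1, 0.29 ± 0.19 for GCLC, 0.22 ± 0.15 for PRDX1 and -0.71 ± 0.21 for GSTA4. Female values there rest on 2 high drip animals and 1 low drip animal (replicate 3), which is assumed to vary like the other groups. These female folds were 0.58 ± 0.25 for PRDX1 and -1.09 ± 0.36 for GSTA4. Those of NQO1 and GCLC stayed positive, at 0.21 and 0.33. GSTA4 was thus lower in high drip animals under each of these assignments and in both sexes, while PRDX1 took a larger positive value wherever high drip replicate 2 was not counted as high drip.

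**Figure D2:**
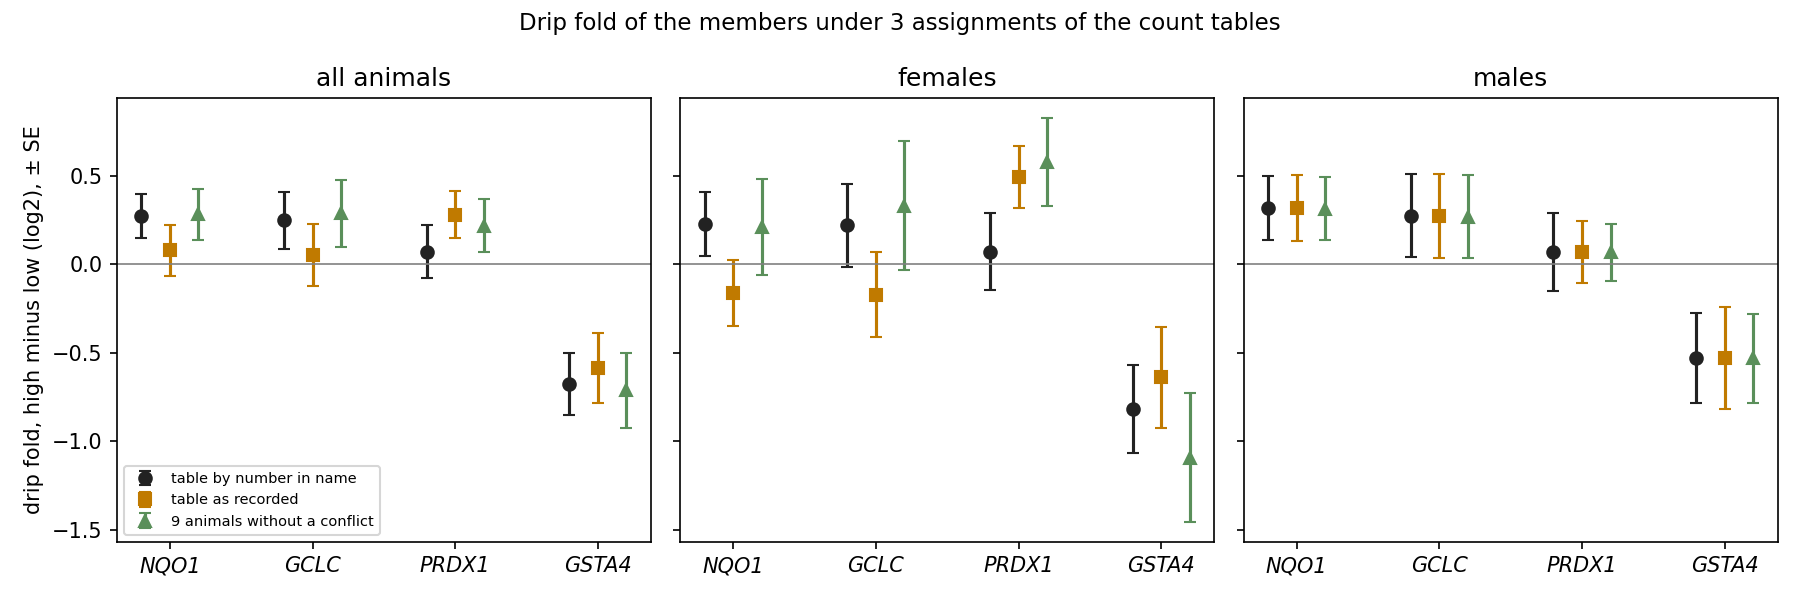
Drip fold (high minus low, log2) of the 4 genes with its SE, over all animals, in females and in males, with tables assigned by number, as recorded, or in the 9 animals without a conflict. In females NQO1 and GCLC change sign with the recorded tables, while GSTA4 lies between -1.09 and -0.64 under all 3 assignments.

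Liver transcripts went opposite ways with drip in the sexes. In females 3 of 3 high drip and 0 of 3 low drip libraries held them, with liver markers summing to 62.9 to 617 against 7.52 to 11.7 CPM, so that in females liver transcripts and drip cannot be told apart, also for the GSTA4 groups that did not overlap. In males 1 of 3 high drip and 2 of 3 low drip libraries held them. In males the liver markers summed to 7.59 to 54.4 CPM with high against 12.7 to 103 CPM with low drip. Over all 12 animals 14 of 15 tested liver markers had a positive drip fold, where 50.4% of all features did. The highest sum, 617 CPM, was in high drip replicate 2. The libraries with liver transcripts are 3 females and 1 male of high drip and 2 males of low drip, and those without are 2 males of high drip and 3 females and 1 male of low drip, so the means below mix drip with sex. Among libraries with liver transcripts, mean GSTA4 was 4.05 CPM in the 4 of high drip against 5.13 CPM in the 2 of low drip. Without them it was 3.84 CPM in the 2 of high drip against 7.11 CPM in the 4 of low drip. GCLC was at 22.2 against 21.6 CPM in libraries with liver transcripts and at 21.0 against 16.8 CPM in those without. NQO1 was at 33.0 against 27.3 CPM with and 31.9 against 26.9 CPM without, and PRDX1 at 59.6 against 58.3 CPM with and 54.7 against 53.6 CPM without. With log2 ALB as a term in the fit, the drip folds were 0.26 for NQO1, 0.18 for GCLC, 0.08 for PRDX1 and -0.64 for GSTA4. The high drip mean was on the same side in both kinds of library for each gene, though for all 4 genes the ranges of the high and low drip libraries with liver transcripts overlapped, and for GCLC and PRDX1 both low drip libraries lay inside the high drip range. Of 7 lymphocyte markers 7 had a positive drip fold, where 50.4% of all features did, and none passed the drip test. They summed to 3.51 to 16.9 CPM with high drip against 2.62 to 8.45 CPM with low drip. Only high drip replicates 1, 2 and 4 (16.9, 14.8 and 11.2 CPM) lay above the low drip range. Markers of erythroid cells (3 with an ID) summed to 36.7 to 85.9 CPM with high drip against 19.3 to 85.4 CPM with low drip, and those of adipocytes (4 with an ID) to 17.7 to 56.6 against 26.1 to 68.1 CPM. Summed macrophage markers (4 with an ID) lay at 9.49 to 31.5 against 14.2 to 33.5 CPM. The part of lymphocytes and these other cells in the values of the 4 genes was not tested.

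Sex, which did not enter the choice of the genes, was tested over the same 12 animals with drip in the fit. None of the 4 genes passed the test between males and females. NQO1 was at 29.0 ± 4.57 CPM in 6 males and 30.6 ± 5.65 CPM in 6 females, a male minus female fold of -0.08 ± 0.12 (edgeR adjusted p = 0.924). GCLC was at 20.6 ± 4.30 against 19.6 ± 4.05 CPM, with 0.07 ± 0.16 (edgeR adjusted p = 0.95). PRDX1 was at 59.1 ± 7.71 against 54.0 ± 12.0 CPM, with 0.13 ± 0.15 (edgeR adjusted p = 0.897). GSTA4 was at 4.62 ± 1.30 against 5.81 ± 1.99 CPM, with -0.31 ± 0.17 (edgeR adjusted p = 0.783), which is lower in males in both drip groups by mean. None of the 4 had groups without overlap, against 0.301% of all features, and 0 of 10627 features passed in edgeR (0%), with 681 (6.41%) at an unadjusted p under 0.05. DESeq2 called 2 features, neither of them a member, and 690 had an unadjusted p under 0.05.

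Whether the 4 genes vary together between animals was asked with the correlation of log2 CPM for 6 pairs. Since all 4 were chosen on the drip contrast, the test was made after subtracting the mean of each sex and drip group. NQO1 and GCLC then had r = 0.78 (exact permutation p = 0.0185 over 1296 orders within groups, adjusted p = 0.111 over 6 pairs) and rho = 0.80 (exact p = 0.0123, adjusted p = 0.0741), so this pair did not pass the correction, and neither did any other. The plain r over 12 animals was 0.79 and rho 0.78, a description that contains the drip contrast. Plain r was 0.74 without the 2 animals farthest from the median of NQO1, 0.88 within 6 females and 0.79 within 6 males.

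PRDX1 and GSTA4 had weaker correlations with the others. Within groups PRDX1 had r = -0.18 with NQO1 and -0.11 with GCLC (exact permutation p = 0.762 and 0.815, adjusted p = 0.944 for both). Its plain r was -0.14 and -0.03, and both turned positive without high drip replicate 2, to 0.22 and 0.35. Within groups GSTA4 had r = 0.22 with NQO1, -0.03 with GCLC and -0.42 with PRDX1 (exact permutation p = 0.563, 0.944 and 0.209, adjusted p = 0.944, 0.944 and 0.627). The value with NQO1 joins 0.73 in females and -0.48 in males, and was -0.53 with the tables as recorded, so no common direction is shown. Within-group rho lay between -0.36 and 0.22 for these 5 pairs (adjusted exact p = 0.882 for each). The plain r of GSTA4 was -0.28 with NQO1, -0.37 with GCLC and -0.36 with PRDX1.

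**Figure D3:**
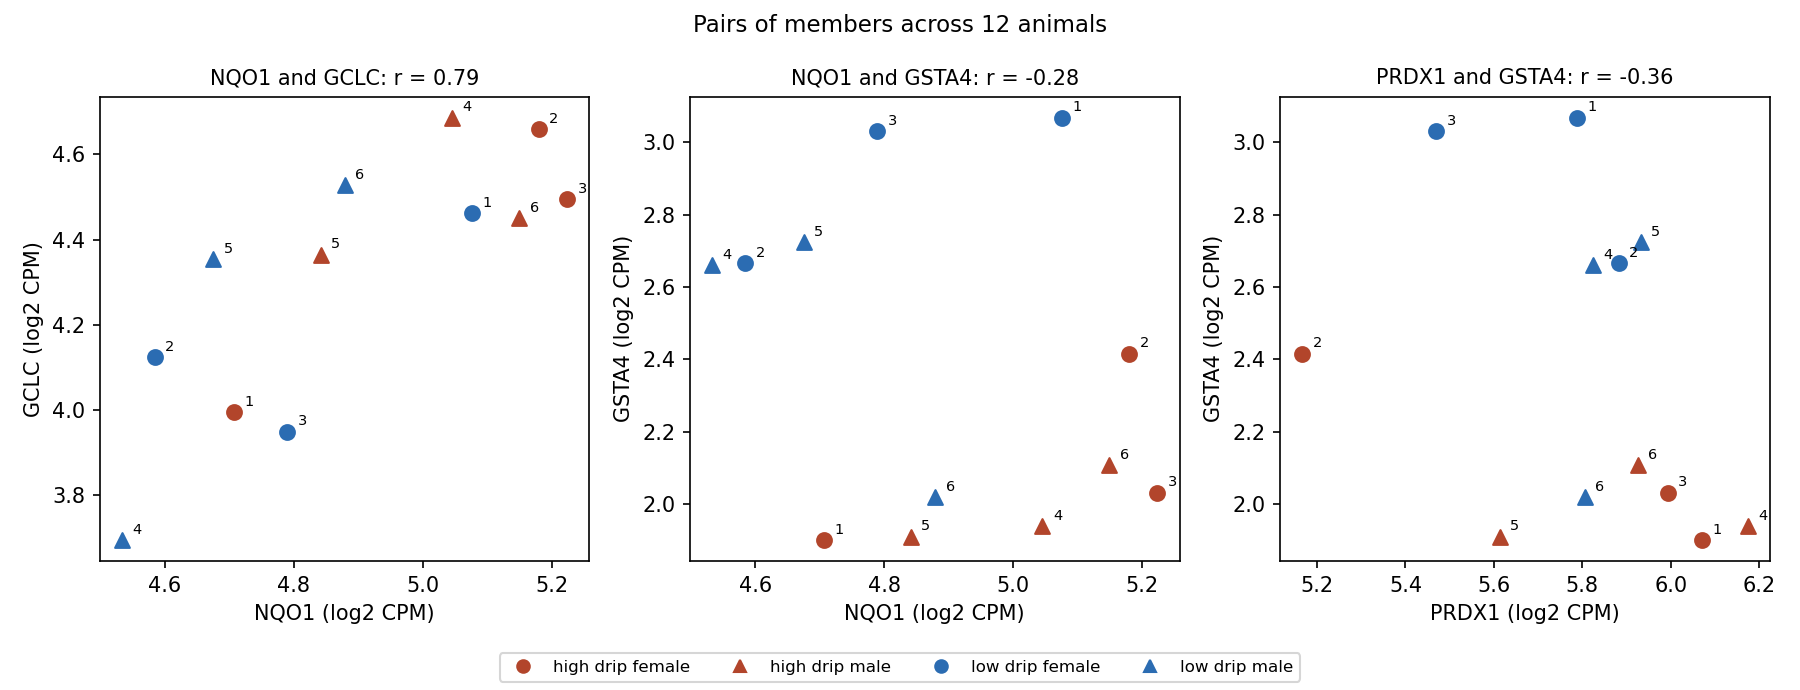
Log2 CPM of 3 pairs of genes in 12 animals, labelled by replicate number; colour gives the drip level and shape the sex. Animals low in NQO1 tend to be low in GCLC (r = 0.79, drip contrast included), and 5 low drip animals lie above all others in GSTA4.

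The genes with the pattern most like each member were taken by r over the 12 animals among 7338 other tested genes with a symbol, as a description. Closest to NQO1 were ATP5ME, a subunit of mitochondrial ATP synthase (r = 0.83), ACY1, an aminoacylase (0.80), and GCLC itself (0.79). ACY1 was at 63.6 ± 7.52 CPM with high drip against 53.7 ± 4.14 CPM with low drip. Closest to GCLC were PROM1 (r = 0.86), the endothelial adhesion molecule PECAM1 (0.85) and HSPA5, the chaperone of the endoplasmic reticulum (0.84). PECAM1 is on the list of endothelial markers. The 5 of these with an ID summed to 186 to 283 CPM with high drip against 185 to 272 CPM with low drip, which overlap almost entirely. The part of endothelial cells in the variation of GCLC between animals was not tested. Closest to PRDX1 were PDCD4, an inhibitor of translation (r = 0.91), STX3, a syntaxin (0.85), and STK3, a kinase of the Hippo pathway (0.79). STX3 was at 0.0778 to 1.55 CPM, so that its likeness rests on few reads. PDCD4 shared the 3 low points of PRDX1, at 22.2, 22.2 and 23.7 CPM in high drip replicate 2, low drip replicate 3 and high drip replicate 5, against 28.1 to 34.7 CPM in the other 9 animals. Closest to GSTA4 were CYP1A1, a cytochrome induced through the aryl hydrocarbon receptor (r = 0.82), WDR74 (0.80) and AFF1 (0.79). CYP1A1 had 0 to 13 counts per library, so that its likeness rests on few reads. AFF1 was at 6.34 ± 0.889 CPM with high drip against 8.42 ± 1.48 CPM with low drip.

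The wider redox network was described with 104 other genes on 9 lists, of which 58 had an ID and 53 were tested. Of the 53, 38 had a higher and 15 a lower fitted level in high drip animals, with a median drip fold of 0.08, where 50.4% of all features had a positive fold and the median was 0.00 (0.0017 before rounding). None passed the drip test in edgeR or DESeq2, and 2 of the 53 had an unadjusted p under 0.05 in edgeR, a share near the 3.58% of all features. With tables as recorded the split was 31 higher and 22 lower. By sex, 19 were higher and 34 lower in males with a median of -0.06, where 50% of all features were higher, and none passed in edgeR. The lists were drawn up with earlier results on redox genes in these animals known, so the split is no independent evidence of a direction.

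Among regulators of NRF2, 2 of 7 had a positive drip fold and 5 a negative one. SQSTM1, which can sequester KEAP1, was at 680 ± 205 CPM with high drip against 602 ± 73.1 CPM with low drip, NFE2L1 at 119 ± 9.05 against 128 ± 18.1 CPM and CUL3, the ubiquitin ligase scaffold that works with KEAP1, at 119 ± 13.5 against 116 ± 13.1 CPM. NFE2L2 itself and KEAP1, named here for their role and outside the naming rule, were at 49.8 ± 6.88 against 53.4 ± 10 CPM and 11.5 ± 1.44 against 12.6 ± 3.96 CPM. Of the 6 other tested genes on the list of NRF2 targets 3 were positive and 3 negative. TXNRD1, the cytosolic thioredoxin reductase, was at 66.8 ± 8.91 against 58.6 ± 7.0 CPM (fold 0.19 ± 0.11). ABCC1, an exporter of glutathione conjugates, was at 34.6 ± 10.7 against 34.6 ± 10.6 CPM, and SRXN1, which restores overoxidised peroxiredoxins, at 24.5 ± 19.6 against 22.8 ± 17.5 CPM. Over both sexes NQO1 thus had the largest positive fold of the 7 tested genes on the NRF2 target list, as a description. Within each sex another gene was higher: TXNRD1 in females (0.26 against 0.23 for NQO1) and SRXN1 in males (0.94 against 0.32). NQO1 was chosen with its drip level known, so nothing is read from its rank.

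Genes that supply NADPH, the reductant of these systems, had positive folds over both sexes in 6 of 6, from 0.00 to 0.22 (0.0037 for the lowest before rounding). The sign differed between females and males for IDH2 (-0.05 and 0.20), ME1 (0.12 and -0.04), PGD (-0.04 and 0.05) and IDH1 (0.47 and -0.02). It was positive in both sexes for TALDO1 and TKT. PGD, IDH1 and TKT are named here after their values were seen. IDH2 was at 587 ± 61.4 against 560 ± 122 CPM, ME1 at 54.2 ± 13.2 against 52.6 ± 7.0 CPM and TALDO1 at 44.1 ± 7.08 against 42.9 ± 9.15 CPM. In glutathione synthesis and turnover 6 of 8 genes besides GCLC were positive over both sexes. The sign differed between females and males for SLC3A2 (-0.01 and 0.18), OPLAH (-0.18 and 0.25) and GGT5 (-0.13 and 0.56). GSR (0.18 and -0.01) and GGCT (-0.03 and 0.41) also differed in sign, while GGT7 was positive in both sexes. GGT5, GSR, GGCT and GGT7 are named here after their values were seen. SLC3A2, the heavy chain shared by amino acid exchangers, was at 244 ± 74.6 against 232 ± 68.1 CPM, OPLAH, the oxoprolinase, at 12.2 ± 3.98 against 11.8 ± 4.22 CPM, and GSS, which makes glutathione from the product of GCLC, at 7.02 ± 1.22 against 8.22 ± 1.98 CPM. CTH, which forms cysteine for glutathione, was named after its values were seen. It was at 2.95 ± 1.06 CPM with high drip against 5.20 ± 1.62 CPM with low drip (fold -0.82 ± 0.27, edgeR adjusted p = 0.999). CTH had 20 to 74 counts per library and its groups overlapped.

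The 4 tested transferases other than GSTA4 had positive folds over both sexes, from 0.02 to 0.25. In females alone 3 of the 4 were negative, at -0.10 for MGST3, -0.09 for GSTM3 and -0.03 for GSTZ1, against -0.82 for GSTA4. GSTO1, of the omega class, was at 32.8 ± 3.65 against 27.6 ± 4.30 CPM (fold 0.25 ± 0.12, edgeR adjusted p = 0.999). GSTZ1, which acts in tyrosine breakdown, was at 44.5 ± 3.39 against 41.0 ± 5.51 CPM and the microsomal MGST3 at 57.4 ± 3.80 against 56.5 ± 6.65 CPM. Of all 53 other redox genes, 2 had a more negative fold than GSTA4, CTH and SESN2, and 2 a more positive one than NQO1, GPX2 (0.60 ± 0.62) and MT1X (0.79 ± 0.40). These 4 were singled out after their values were seen. The MT1X fold was 1.55 in females and -0.01 in males. MT1X was at 13.9 and 7.47 CPM in high drip replicates 1 and 2, against 1.54 to 5.36 CPM in the other 10 animals. Both libraries held liver transcripts, whose part in MT1X was not tested. SESN2, a stress-induced sestrin, reached 30.0 CPM in low drip replicate 1 and 71.1 CPM in low drip replicate 2, with 3.32 to 13.3 CPM in the other 10 animals, so its fold of -0.95 ± 0.58 rests on these 2 females, both among the 3 whose recorded table was another animal's.

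Among peroxiredoxins and thioredoxin system genes besides PRDX1, 9 of 12 had positive folds over both sexes. Of the positive genes, TXNL1 (0.10 in females and -0.02 in males), GLRX5 (-0.10 and 0.38) and TXNRD2 (-0.01 and 0.26) differed in sign by sex. TXNL1, GLRX5 and TXNRD2 are named here after their values were seen. PRDX3, the mitochondrial peroxiredoxin, was at 461 ± 50.7 against 407 ± 57.6 CPM (fold 0.18 ± 0.11), PRDX2 at 294 ± 24.8 against 265 ± 39.1 CPM (0.15 ± 0.10) and PRDX6 at 220 ± 53.8 against 198 ± 25.4 CPM (0.15 ± 0.15). The fold of PRDX1, 0.07 ± 0.15, was below these 3 and next to that of PRDX5, another peroxiredoxin, at 0.07 ± 0.10, named after its values were seen. In the remaining lists GPX4, which reduces lipid hydroperoxides, was at 34.9 ± 5.66 against 31.1 ± 2.39 CPM and GPX2 at 4.67 ± 3.38 against 3.17 ± 2.64 CPM. Superoxide, catalase and metallothionein genes were positive over both sexes in 5 of 6, with SOD1 at 143 ± 15.6 against 132 ± 5.25 CPM, CAT at 318 ± 60.3 against 303 ± 65.2 CPM and PARK7 at 321 ± 24.3 against 303 ± 20.8 CPM. Of the positive genes, CAT (0.21 in females and -0.05 in males) and MT1X (1.55 and -0.01) differed in sign by sex. Of the methionine sulfoxide reductases MSRB3 was at 321 ± 18.8 against 293 ± 43.9 CPM and MSRA at 11.8 ± 2.89 against 12.5 ± 1.21 CPM. None of these differences passed in edgeR or DESeq2.

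**Figure D4:**
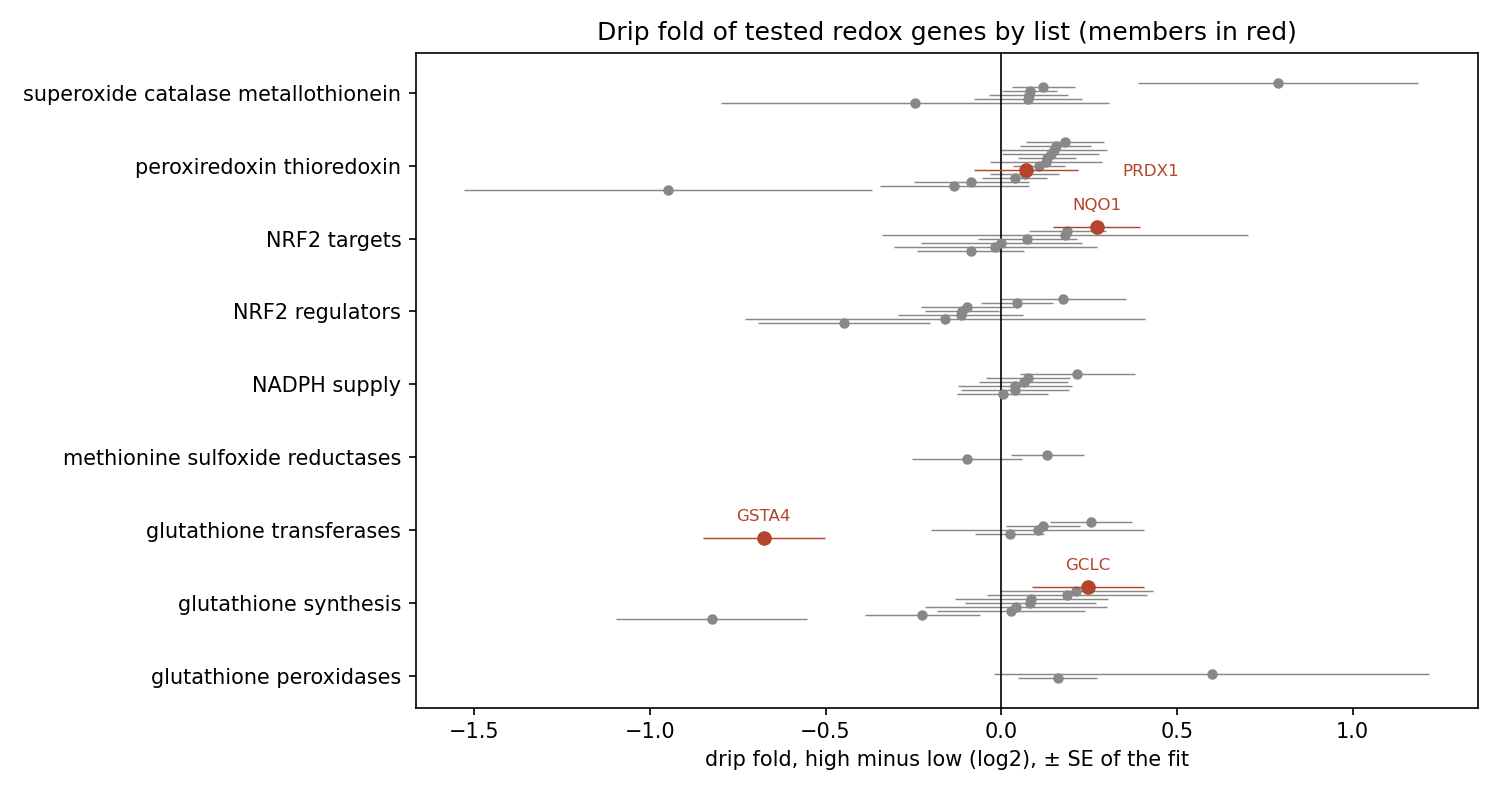
Drip fold (high minus low, log2) with the SE of the fit for the 57 tested redox genes, by list, with the 4 members in red and labelled. Over both sexes NQO1 (0.27) has the largest fold of the tested genes on the NRF2 target list, though in neither sex alone, and not of all redox genes. GSTA4 (-0.68) is the single transferase below 0 over both sexes, while in females alone 3 of the 4 others are also below 0.

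By sex, 3 of the 53 genes had an unadjusted p under 0.05 in edgeR, a share near the 6.41% of all features, and they are named only as values, after these were seen. SESN2 was at 5.17 ± 1.56 CPM in males and 22.0 ± 25.8 CPM in females (fold -1.80 ± 0.59, adjusted p = 0.669), with the same 2 females above all others. IDH1, a cytosolic NADPH source, was at 15.9 ± 2.98 CPM in males and 11.9 ± 2.75 CPM in females (0.43 ± 0.16, edgeR adjusted p = 0.734), and GSTM3 at 1.24 ± 0.453 against 0.784 ± 0.207 CPM (0.68 ± 0.30, edgeR adjusted p = 0.764).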

How the data were processed

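The deposited values are raw counts per feature that the authors made with TopHat2 2.0.3, Bowtie 0.12.7.0 and HTSeq on Sscrofa10.2, per the submitters' processing notes; the annotation release and strand setting are not given in the sources used here, so a gene and an antisense partner cannot be told apart, and reads of near-identical copies of PRDX1 or GSTA4 may be split or lost. Between 12.8% and 15.5% of alignments were not unique, 24.2% to 29.3% fell in no feature and 0.653% to 0.784% were ambiguous; these lines were left out. Symbols were matched for 10349 of 20300 Ensembl IDs. Whole-genome tables were assigned to animals by the number in their name, and the region tables, which hold none of the 4 genes, served to check this.

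The model for the counts was that of edgeR 4.0.16, run under R 4.3.3 (TMM, filterByExpr by sex and drip with a minimum count of 10, quasi-likelihood F-test, two-sided, terms sex and drip, Benjamini-Hochberg adjustment over all features, threshold 0.05), with DESeq2 1.42.0 as an alternative. The fit was tested on simulated data. CPM uses TMM-scaled totals of tested features, except ALB and marker sums (whole table), and log2 CPM has a prior count of 2. Correlations were tested two-sided over all 1296 orders within sex and drip groups. Plain correlations are given without a p, since they contain the contrast that chose the genes. Nothing but the labels says that samples are separate animals, and p-values measure the spread between them.

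The members and the gene lists were chosen with earlier results of these data known. Named were the 4 members, the 3 genes with the highest mean CPM on each of 9 redox lists, every list gene past the threshold, the 3 genes most like each member, and ALB. Marker lists covered liver, skeletal muscle, adipocytes, erythroid cells, macrophages, lymphocytes, endothelial cells and fibroblasts; fibroblast markers summed to 2812 to 5296 CPM in high and 3233 to 5088 CPM in low drip animals. No gene lengths were used, so levels are not compared between genes.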

Additional observations from a re-analysis of the deposited data

Results flagged for a closer look

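In groups of 6 animals, a value was marked where its gap to the nearest animal was an unusually large part of the group's range by Dixon's criterion, which chance meets in about 1 of 20 groups. It was met in 8 of 80 groups over 40 named genes. PRDX1 was at 44.1 CPM in low drip replicate 3 against 55.1 to 60.9 CPM in the other low drip animals, and PDCD4, the gene most like PRDX1, was at 22.2 CPM in the same animal against 28.4 to 29.9 CPM. GSTA4 was at 5.14 CPM in high drip replicate 2 against 3.53 to 4.11 CPM in the other high drip animals. In that animal SLC3A2 was at 387 CPM against 178 to 251 CPM. IDH2 was at 805 CPM in low drip replicate 3 against 491 to 543 CPM. GSTO1 was at 36.0 CPM in low drip replicate 6 against 24.6 to 28.1 CPM. SRXN1 was at 62.7 CPM in high drip replicate 4 against 8.32 to 23.9 CPM. PROM1 was at 2.68 CPM in high drip replicate 1 against 3.81 to 4.30 CPM.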

How the results depend on the processing

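The drip folds of the 4 genes kept their sign with no filter, with no scaling factors, without sex in the fit, with DESeq2 size factors, DESeq2, an added ALB or age term and both other assignments of the tables, and when 1 animal was left out, except PRDX1 without high drip replicate 1. No feature passed for drip under any of these settings; for sex 1 feature passed with no filter and 2 with DESeq2. With the tables as recorded, the drip fold in females was -0.16 for NQO1, -0.17 for GCLC and 0.49 for PRDX1, and the male minus female difference was 0.48, 0.45 and -0.42. In the 9 animals without a conflict the female fold was 0.58 for PRDX1 and -1.09 for GSTA4, and the difference -0.51 and 0.56. The sex fold of GCLC was -0.022 with age added and -0.011 to 0.16 with 1 animal left out (lowest without high drip replicate 1, highest without low drip replicate 4); that of NQO1 was -0.15 without high drip replicate 1 to -0.015 without low drip replicate 1, of PRDX1 0.024 without high drip replicate 2 to 0.20 without high drip replicate 1, and of GSTA4 -0.37 without high drip replicate 1 to -0.20 without low drip replicate 6. The plain r of NQO1 and GCLC, which contains the drip contrast, was 0.77 in the 9 animals and 0.72 to 0.83 with 1 animal left out. Their within-group r was 0.80 in the 9 animals and 0.67 to 0.84 with 1 animal left out. With 1 animal left out it never passed the correction (lowest adjusted exact permutation p = 0.0833).

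Signs of the weak correlations turned. Plain r in the 9 animals was 0.33 for NQO1 and PRDX1 and 0.43 for GCLC and PRDX1; with 1 animal left out it was -0.28 to 0.22 and -0.26 to 0.35. Within groups, r with the tables as recorded and in the 9 animals was 0.11 and 0.23 for NQO1 and PRDX1, -0.53 and -0.19 for NQO1 and GSTA4, 0.063 and 0.31 for GCLC and PRDX1, and 0.29 and 0.20 for PRDX1 and GSTA4. With 1 animal left out the within-group r was -0.40 to 0.16 for NQO1 and PRDX1, -0.010 to 0.74 for NQO1 and GSTA4, -0.26 to 0.34 for GCLC and PRDX1, and -0.27 to 0.49 for GCLC and GSTA4. The cause was not tested. Of 192 alternative values of folds 185 kept their sign and 7 turned, and of 192 correlations 172 kept it and 20 turned. GSTA4, with 30 to 75 counts per library, has the fewest counts of the 4 genes. No paired analysis was possible because the labels give no replicate numbers that tie animals of different groups together.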
